A study of Homo sapiens with 8 samples.

Results

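Alternative 5′ splice sites that lie more than 50 nt apart were examined in U2OS cells, a human osteosarcoma line, after depletion of CHERP. An rMATS event of the A5SS type joins a short and a long form of the same exon to 1 downstream exon, and an event was taken as a member when its long exon exceeded its short exon by more than 50 nt. Of 3268 events in whole-cell RNA, 1898 (58.1%) were members, in 1423 genes. Of 2269 events in cytoplasmic RNA, 1293 (57.0%) were members, in 1042 genes, and 1151 members had the same coordinates in both fractions. The stretch of sequence between the upstream (short-form) and the downstream (long-form) 5′ splice site is called the extension here. Its median length was 156 nt in whole cells, with a longest extension of 4801 nt, and 154 nt in the cytoplasm, with a longest of 14876 nt.

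Cells received 20 nM of an siRNA against EGFP as the control, or of CHERP#2 siRNA, for 48 h. Whole-cell and cytoplasmic RNA were sequenced from 2 libraries of each, making 4 groups and 8 libraries, and the methods describe the libraries of a group as biological replicates. Only 1 CHERP siRNA was sequenced, so its effect and the loss of CHERP cannot be told apart. The deposited tables give, for each event and library, the reads that match the long form (inclusion) and the short form (skipping). The long-form level used below is the inclusion reads over their effective length, divided by the sum of that and the skipping reads over theirs. It runs from 0, where no reads match the long form, to 1.

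The 5′ splice site marks the start of an intron and is first bound by the U1 snRNP through base pairing with the last bases of the exon and the first bases of the intron. Where several candidate sites lie in a row, the choice among them sets where the exon ends. CHERP associates with the U2 snRNP, which binds the branch point near the other end of the intron. When the downstream site of a distant pair is chosen, the mRNA can keep a long stretch that the upstream site would remove as intron. Relative to the short form, this can add a stop codon or, in a non-coding RNA, an additional stretch of sequence.

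The sites of 6 members that carry the results below are shown from the hg19 genome sequence. Each line covers 5 exonic and 15 intronic bases, 5′ to 3′, and the capitals mark the 3 exonic and 6 intronic bases that were scored.
PRPF38A short site, chr1:52871381-52871400 (+): ttAAGGTTTGTgggtggcgt
PRPF38A long site, chr1:52871507-52871526 (+): ttCAAGTGAGTgcaatgttc
ENSA short site, chr1:150599928-150599947 (-): aaGGGGTATGGggcatagtc
ENSA long site, chr1:150599773-150599792 (-): ttAATGTAAATccctgatgt
PHC2 short site, chr1:33799771-33799790 (-): gaATGGTGAGAataaaccac
PHC2 long site, chr1:33799676-33799695 (-): tcCCGGTACGGactacttct
PPIE short site, chr1:40211166-40211185 (+): agCAGGTGAGCaggacgctg
PPIE long site, chr1:40214435-40214454 (+): acAAGGTTAGTatcacaaag
NOP56 short site, chr20:2636676-2636695 (+): ttCAGGTACCAgtgagggca
NOP56 long site, chr20:2636856-2636875 (+): tcCAGGTCAGCgacattgga
ATP6AP1 short site, chrX:153657516-153657535 (+): acAAGGTGCGCccgccccag
ATP6AP1 long site, chrX:153659999-153660018 (+): aaGAGGTGAGTctcccaccc
They were chosen because the long form of the first 3 rose and that of the other 3 fell in the fraction where each was called. In all of them the intron begins with GT, and none has the full GTAAGT. The site score is the log2 odds of the 9 capital bases under the base frequencies of 39070 reference 5′ splice sites, which had a median score of 8.44. In PRPF38A the long site scored 8.97 and the short site 6.03. The order was the opposite in PHC2, with 5.46 for the long and 8.29 for the short site, and in PPIE, with 8.69 and 10.1.

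Over all whole-cell members the median score was 6.81 at the short site and 7.11 at the long site, both below the reference median. The long site was the stronger in 969 of 1898 members (51.1%). Among the 1370 events up to 50 nt apart, the medians were 5.65 and 6.15. An intron of members began with GT at 97.4% of the short and 97.7% of the long sites, and with GTAAGT at 7.22% and 8.22%, against 99.7% and 16.6% of the reference sites. The extension was a multiple of 3 nt long in 709 members (37.4%) and in 620 of the 1370 closer pairs (45.3%). These are descriptions of the event table without a test.

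Many extensions were not plain intron sequence. In 607 of the 1898 whole-cell members, GENCODE annotates an intron that starts at the short site and ends inside the extension, so that the extension holds an intron followed by another exon. In 440 of them that inner intron belongs to the MANE transcript, the reference transcript chosen for the gene. In such an event the junction from the long site is also made by RNA in which the inner intron has been removed, and the short form then corresponds to skipping of the inner exon. The median extension was 379 nt with such an intron and 112 nt without, and none of the 559 members with an extension up to 100 nt had one. In the cytoplasm, 401 members (31.0%) had an inner intron.

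CHERP depletion itself was checked first. The splicing events of CHERP held 103 and 77 reads in the whole-cell EGFP siRNA libraries and 3 and 10 with CHERP siRNA, and in the cytoplasm 31 and 21 against 3 and 4. The whole-cell level fell by 3.46 on the log2 scale (SE 0.57, limma, adjusted p = 0.00144). Reads on members ranged from 621343 to 758751 per library in whole cells and from 141955 to 182020 in the cytoplasm, and the median member had a mean of 72.5 and 25.25 reads per library. As a check of the cell line, the mesenchymal VIM and FN1 held at least 13451 reads in every whole-cell library and COL5A2 16 to 18. The bone lineage factor RUNX2 held 16 and 18 reads in the control and 0 and 3 after depletion, the epithelial CDH1 1 and 1 against 22 and 15, and CD34 5 and 19 against 1 and 2. SPARC, COL1A2, EPCAM, KRT19, PTPRC and PECAM1 had no event in the tables used.

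In the control libraries most members were close to 1 end of the scale. Among 1438 whole-cell members with 20 or more reads per library on average, the median long-form level with EGFP siRNA was 0.874, with quartiles of 0.0889 and 0.983. The level was under 0.1 in 366 members and over 0.9 in 667. Where the MANE transcript used the long site, the median was 0.970 (744 members), and where it used the short site it was 0.0243 (433 members). The levels of members with an inner intron had a median of 0.963 (522 members), and those without had a median of 0.471 (916 members).

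**Figure D1:**
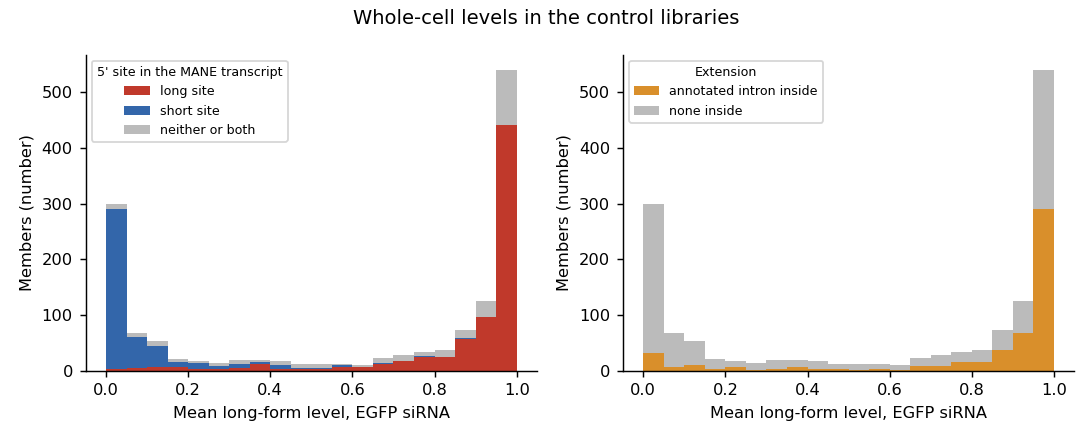
Histograms of the mean long-form level (0 to 1, horizontal) of whole-cell members with at least 20 reads in the 2 EGFP siRNA libraries, against the number of members, coloured on the left by the 5′ site used in the MANE transcript and on the right by whether an annotated intron lies inside the extension. Members that use the long site in MANE pile up near 1 (median 0.970) and those that use the short site near 0 (median 0.0243), and members with an inner intron have a median of 0.963.

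The first comparison asked whether the choice of site differed between CHERP and EGFP siRNA in whole cells. After CHERP depletion the long form rose in 22 members and fell in 7, of 1898 tested, at a false discovery rate (FDR) under 0.05 over all A5SS events. This is 1.53% of members, and over all 3268 events 1.13% were called, 0.918% with a rise and 0.214% with a fall of the long form. All 7 falls in the table were members, and the 1370 closer pairs gave 8 rises. The calls lay in 29 genes. The difference in level was at least 0.1 in 13 of the 29 and under 0.05 in 13. Across the 1438 members with at least 20 reads, the median difference was 0.00128 and 783 (54.5%) were higher, so the members as a whole lay at almost the same level with either siRNA. The median absolute difference between the siRNAs was 0.0211, and the median absolute difference between 2 libraries of a group was 0.0211 for EGFP and 0.0169 for CHERP siRNA, where single libraries rather than group means are compared.

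These calls rested on an estimate of the spread shared by all events. The fitted spread between replicates, 2.06 to 4.81 times that of binomial counting, had infinite prior degrees of freedom, so that an event's own replicates carried no weight in its test. With the prior set to 4 degrees of freedom, with limma on the log2 odds, and with residual degrees of freedom counted for every group, which was chosen after seeing the data, no member passed in either fraction. At an unadjusted p under 0.05 the whole-cell counts were 167 members with the shared spread, 94 with a prior of 4, 152 with limma and 118 with the last setting. Without the first EGFP siRNA library 44 members were called, without the second 16, without the first CHERP siRNA library 8 and without the second 7. In 4 of the 29 members (RPS2, SNHG8, RPL41 and NCBP3), the libraries of a group were farther apart than the siRNA groups.

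**Figure D2:**
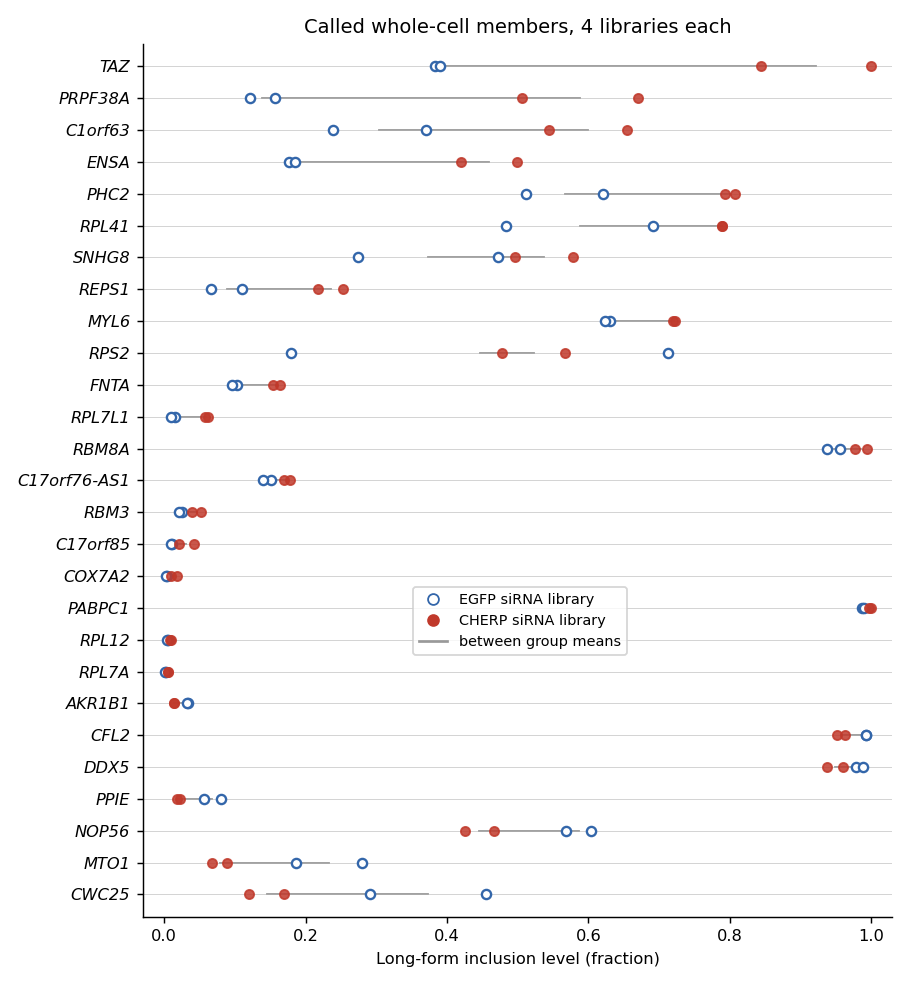
Long-form level (0 to 1, horizontal) of 27 of the 29 whole-cell members called, ordered by the difference, with open blue circles for the 2 EGFP siRNA libraries, filled red circles for the 2 CHERP siRNA libraries and a grey line between the group means. The largest rise was in TAZ (0.535) and the largest fall in CWC25, and the libraries of the groups overlap in RPS2 only.

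Called genes with a role in splicing are described first. PRPF38A, a component of the spliceosome, had the highest rise of a member without an inner intron. Its long-form level was 0.121 and 0.157 in the EGFP siRNA libraries and 0.506 and 0.670 in the CHERP siRNA libraries, a difference of 0.449 (ln odds 2.06, SE 0.49, FDR = 0.00129). The 126 nt extension, chr1:52871386-52871511, lies in intron 2 of 7 of PRPF38A-202, a non-coding transcript. The groups did not overlap, and the short form lost most of its reads, with 62 and 63 in the control and 13 and 5 after depletion. The level of PRPF38A reads on other event types was lower by 0.46 on the log2 scale (limma, adjusted p = 0.0174).

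CWC25, a factor of the first catalytic step of splicing, had the largest fall. The long-form level was 0.455 and 0.291 in the control libraries and 0.120 and 0.170 after CHERP depletion (difference -0.228, FDR = 0.0277). Its 192 nt extension, chr17:36966529-36966720, contains an annotated inner intron of 67 nt and an inner exon of 125 nt. The skipped-exon event of that exon moved in the same direction, from a mean level of 0.263 to 0.0863, but it shares reads with the alternative 5′ splice site. A retained intron event of the inner intron itself lay near full retention in both groups. Its levels were 1.00 and 0.938 in the control libraries and 1.00 and 0.899 after depletion (FDR = 0.895). In the long-form level, each depleted library was below each control library, although the control libraries differed by more than the depleted ones.

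PPIE, a cyclophilin found in the spliceosome, was called in both fractions. In whole cells the long form held 224 and 360 reads in the control and 93 and 109 after depletion, while the short form held 160, 174, 220 and 197. Its level was 0.0558 and 0.0803 against 0.0175 and 0.0228, with an FDR of 1.58e-12. In the cytoplasm it was 0.0263 and 0.0321 against 0.00384 and 0.00272, with an FDR of 8.89e-08. The groups did not overlap in either fraction, and the fall passed without each single library in both. The extension, chr1:40211171-40214439, spans 3269 nt in intron 7 of 9 of PPIE-201, which leaves an intron of 135 nt after the long site, and read from the short form's frame it holds a stop codon.

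RSRP1, DDX5, RBM3 and NCBP3 were called in whole cells as well. In RSRP1 (C1orf63 in the table), which encodes an arginine and serine rich protein, the level was 0.238 and 0.370 with the control siRNA against 0.655 and 0.545 after depletion (FDR = 1.27e-06). This is a rise of 0.295 over a 973 nt extension, and the long site is weak, with a score of -1.64 against 9.16 at the short site. In DDX5, an RNA helicase, the level was 0.979 and 0.989 against 0.960 and 0.937 (FDR = 0.0183). The DDX5 extension covers the annotated microRNA genes MIR3064 and MIR5047, and the short form rose from 11 and 7 reads to 36 and 57. The skipped-exon event of its inner exon had whole-cell mean levels of 0.995 and 0.983. In the cytoplasm the DDX5 long-form levels were 1 and 1 against 0.798 and 0.696, without a call. Short-form reads there were 0 and 0 against 8 and 11. In RBM3, a cold-inducible RNA-binding protein, the level was 0.0259 and 0.0207 against 0.0518 and 0.0398 (FDR = 1.80e-05). NCBP3 (C17orf85), a cap-binding protein, had levels of 0.0104 and 0.00943 against 0.0204 and 0.0415 (FDR = 0.00545). RSRP1, RBM3 and NCBP3 rose and DDX5 fell, and all 4 have an annotated inner intron.

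In mRNA surveillance, RBM8A, a core subunit of the exon junction complex, had levels of 0.956 and 0.937 against 0.994 and 0.977 (FDR = 0.0445). The RBM8A extension holds a MANE inner intron, and its short-form reads were 20 and 31 against 3 and 12. The skipped-exon event of the inner exon had mean levels of 0.981 and 0.995. The long-form levels of the RBM8A groups did not overlap in whole cells.

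Several called genes encode ribosomal proteins or snoRNP proteins or host snoRNAs, grouped here for description after their values were seen. NOP56, a core protein of box C/D snoRNPs, had levels of 0.569 and 0.604 in the control libraries and 0.466 and 0.426 after CHERP depletion (difference -0.140, FDR = 0.000153). The 180 nt extension, chr20:2636681-2636860, follows the short site in intron 8 of 11 and covers the gene of the snoRNA SNORD86. The long-form reads were 602 and 773 against 571 and 456, and the short-form reads 203 and 225 against 291 and 273. In the cytoplasm the levels were 0.345 and 0.365 against 0.274 and 0.214, below those of whole cells in all groups, and the fall of 0.111 did not pass (FDR = 0.132).

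RPL7L1, a ribosomal protein paralogue, rose from 0.0155 and 0.0101 to 0.0571 and 0.0621 (FDR = 1.27e-06), and the call held without each single library. Its short-form reads fell from 811 and 1144 to 366 and 393, and reads of the gene on other events were lower by 0.89 on the log2 scale (limma, adjusted p = 0.000371). In RPL12 the long form rose from 0.00527 and 0.00396 to 0.00974 and 0.00808 (FDR = 0.00149), and in RPL7A from 0.00270 and 0.000783 to 0.00554 and 0.00494 (FDR = 0.00375). The long form of these ribosomal protein genes is a trace, with at most 143 reads in RPL12 beside at least 5231 of the short form. Reads of ribosomal protein genes can also come from near-identical pseudogenes, and the values are uncertain to that extent.

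RPL41 had levels of 0.691 and 0.484 against 0.788 and 0.789 (FDR = 0.0409). RPS2 was called with an FDR of 5.78e-07 although its groups overlapped, with 0.180 and 0.712 in the control and 0.567 and 0.478 after depletion. The first EGFP siRNA library held 500 short-form reads of RPS2 and the second 57. Without the first EGFP siRNA library the RPS2 difference was -0.190, in the opposite direction. SNHG8, a non-coding snoRNA host gene, had levels of 0.472 and 0.274 against 0.497 and 0.578 (FDR = 2.13e-06), and the control libraries differed by more than the groups did. SNHG29 (C17orf76-AS1), another snoRNA host gene, rose in both fractions, from 0.151 and 0.140 to 0.169 and 0.178 in whole cells (FDR = 0.0314) and from 0.134 and 0.122 to 0.155 and 0.164 in the cytoplasm (FDR = 0.0104).

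MTO1, an enzyme that modifies mitochondrial tRNAs, had a lower long form. The levels were 0.187 and 0.280 with the control siRNA against 0.0683 and 0.0889 after depletion (difference -0.155, FDR = 0.00588). The short form rose from 44 and 53 to 97 and 92 reads, while the long form had 27 and 55 against 19 and 24. The 241 nt extension, chr6:74189850-74190090, includes an annotated 75 nt inner exon, whose skipped-exon event lay at 0.216 and 0.0769 in the group means.

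The largest rise was in TAZ (now TAFAZZIN), the cardiolipin-remodelling enzyme tafazzin. It had levels of 0.383 and 0.390 in the EGFP siRNA libraries and 0.844 and 1 in the CHERP siRNA libraries, a difference of 0.535 (ln odds 2.66, SE 1.02, FDR = 0.0409). It rested on 20 and 16 short-form reads in the control against 2 and 0, and the call was lost without any 1 of the libraries. The 123 nt extension, chrX:153647963-153648085, holds a MANE inner intron of 81 nt and an exon of 42 nt. The skipped-exon event of that exon had mean levels of 0.463 and 0.940, but it counts the same short-form reads. Its inclusion reads were 22 and 18 in the control against 19 and 23 after depletion.

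ENSA, an inhibitor of the phosphatase PP2A-B55 in mitosis, rose from 0.177 and 0.185 to 0.498 and 0.419 (difference 0.278, FDR = 0.00101). Its 155 nt extension, chr1:150599788-150599942, holds a stop codon in the short form's frame, and follows the short site at intron 2 of 4 of ENSA-202, with neither site alone in the MANE form. PHC2, a Polycomb group protein, rose from 0.511 and 0.621 to 0.793 and 0.807 (difference 0.234, FDR = 0.00545). The PHC2 extension of 95 nt, chr1:33799691-33799785, belongs to the MANE form. REPS1, an endocytic adaptor, rose from 0.0666 and 0.110 to 0.217 and 0.254 (difference 0.147, FDR = 0.00224). The 3576 nt of the REPS1 extension are mostly a 3495 nt inner intron followed by an 81 nt exon, which makes the level low although the skipped-exon event of that exon had mean levels of 0.629 and 0.841. None of these 3 overlapped between the groups.

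MYL6, a myosin light chain, rose from 0.630 and 0.623 to 0.720 and 0.722 in whole cells (FDR = 0.000252). The MYL6 extension of 1019 nt is mostly the MANE inner intron of 875 nt, followed by a 144 nt exon. The skipped-exon event of that exon had whole-cell mean levels of 0.936 and 0.956, a smaller difference of 0.0209. In the cytoplasm the long-form levels of MYL6 were 0.949 and 0.934 against 0.919 and 0.951, with no call (FDR = 0.905). FNTA, the shared alpha subunit of protein farnesylation and geranylgeranylation enzymes, rose from 0.103 and 0.0965 to 0.153 and 0.164 (FDR = 0.00529). In the cytoplasm FNTA had 0.0615 and 0.0750 against 0.0996 and 0.164 without passing (FDR = 0.524). CFL2, a cofilin, fell from 0.993 and 0.993 to 0.952 and 0.963 (FDR = 0.0183), AKR1B1, aldose reductase, fell from 0.0337 and 0.0328 to 0.0141 and 0.0141 (FDR = 0.00792), and COX7A2, a subunit of cytochrome c oxidase, rose from 0.00397 and 0.00270 to 0.0101 and 0.0187 (FDR = 0.00232). The CFL2 call was lost without any 1 of the libraries. PABPC1, the cytoplasmic poly(A)-binding protein, rose from 0.987 and 0.990 to 0.997 and 0.999 (FDR = 0.00042).

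The called members were spread over the whole range of distances. The share called was 0.537% of 559 members with 51 to 100 nt between the sites, 1.81% of 552 with 101 to 200 nt, 1.43% of 490 with 201 to 500 nt, 1.81% of 166 with 501 to 1000 nt and 4.58% of 131 with 1001 to 4801 nt. The reads on an event rose with the distance, from a median of 46.25 to 195.0 per library between the first and the last of these ranges, and the part of depth in the called share was not tested. At the threshold itself, 14 whole-cell members with a gap of 51 nt and at least 20 reads had a median difference of 0.00953, and 10 events with a gap of 50 nt had -0.00582.

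**Figure D3:**
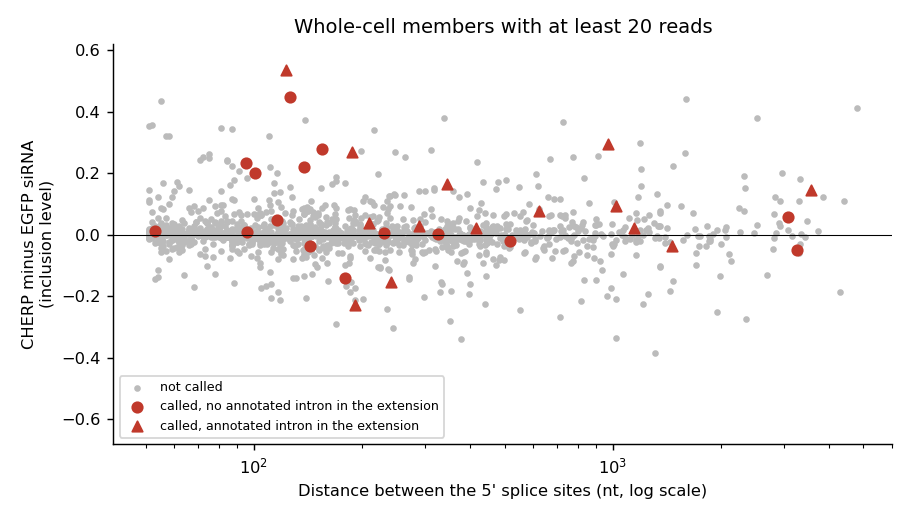
Difference in long-form level (CHERP minus EGFP siRNA, vertical) against the distance between the 5′ sites (nt, log scale) for the 1438 whole-cell members with at least 20 reads, grey where not called and red where called, with triangles for called members that have an annotated intron inside the extension. The 29 called members range from 53 to 3576 nt, and 189 others differ by at least 0.1 without a call.

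Of the 22 rises, 8 had the long site in the MANE transcript, 9 the short site and 5 neither alone, and of the 7 falls 2 had the long site and 5 the short site. Among all 1438 members with at least 20 reads, these numbers were 744, 433 and 261. An inner intron was annotated in 14 of the 29 called members, 11 that rose and 3 that fell, beside 522 of those 1438. Whether the called members differ from the others in these traits was not tested. Among called members without an inner intron whose frame could be read, the extension held a stop codon in 6 of 8 that rose and in all 3 that fell, and in 276 of 509 members of that kind with at least 20 reads. A further 189 whole-cell members with at least 20 reads differed by at least 0.1 without a call.

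An event of retained intron type covered the same intron in 7 called whole-cell members, and in 139 of all 1898 members (7.32%). In the 7 it was the intron of the short form, so the junction that removes it is also the short-form junction. Its level moved in the same direction in 6, which is not independent of the member counts. In RSRP1 the intron between the short site and the acceptor was retained at 0.386 with EGFP siRNA and 0.684 with CHERP siRNA (mean of 2, FDR = 1.02e-05 over all retained introns). In AKR1B1 it went from 0.0388 to 0.0171 (FDR = 0.00653), in RBM3 from 0.0352 to 0.0646 (FDR = 2.20e-06), and in PABPC1 from 0.960 to 0.993 (FDR = 0.0178). TAZ and RBM8A had higher means of 0.815 and 0.526 against 0.224 and 0.203, without passing (FDR = 0.164 and 0.213). SNHG29 lay at 0.0867 and 0.0794 in whole cells (FDR = 0.703), and in the cytoplasm it rose from 0.0653 to 0.0828 (FDR = 0.000642). Reads from unspliced RNA fall on the extension too and are counted as long form, so the use of the long site and retention of the whole intron cannot be told apart from these counts.

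In the cytoplasm the long form rose in 5 members and fell in 4, of 1293 tested. This is 0.696% of members, beside 0.617% of all 2269 events, 0.441% with a rise and 0.176% with a fall. Of these 9 members 3 were also called in whole cells, SNHG29 and PPIE among them. The cytoplasmic tables hold fewer and shorter reads, with a short-form effective length of 73 against 144 in whole cells, and 709 cytoplasmic members averaged 20 or more reads. Their median difference was 0.00211. Without the first or the second EGFP siRNA library 4 members were called in each case, without the first CHERP siRNA library 3 and without the second 7. With all libraries 70 members had an unadjusted p under 0.05 (33 with a prior of 4 degrees of freedom, 101 with limma and 20 with residual degrees of freedom counted for every group).

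STXBP2, a Munc18 protein of secretory granule release, rose the most. The cytoplasmic levels were 0.651 and 0.583 with the control siRNA against 1 and 0.886 after depletion (difference 0.326, FDR = 0.0220). The change rested on 10 and 13 short-form reads against 0 and 2, and the extension, chr19:7712134-7712397, holds a MANE inner intron in intron 17 of 17 of STXBP2-218. In whole cells 2 and 2 short-form reads stood against 0 and 0, with no call (FDR = 0.709).

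MTCH1, a protein of the mitochondrial outer membrane, used its long site more, with 0.187 and 0.134 against 0.335 and 0.310 in the cytoplasm (difference 0.162, FDR = 0.0185). The extension of 51 nt, chr6:36940428-36940478, is the shortest that the threshold admits, is a multiple of 3 and belongs to the MANE form. In whole cells the levels were 0.204 and 0.176 against 0.298 and 0.296, apart between the groups without passing (FDR = 0.130). Reads of MTCH1 on other events were higher by 1.74 in the cytoplasm (adjusted p = 8.64e-08) and by 1.57 in whole cells (adjusted p = 2.62e-05) on the log2 scale (limma). EEF1D, a subunit of translation elongation factor 1, rose from 0.760 and 0.800 to 0.90 and 0.88 (FDR = 0.00322) over a 57 nt extension, which is also a multiple of 3 and in the MANE form. A retained intron event of the same EEF1D intron, which shares the short-form junction, rose from a mean of 0.462 to 0.684 (FDR = 0.000528).

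UPP1, uridine phosphorylase, fell from 0.964 and 0.938 to 0.785 and 0.764 in the cytoplasm (difference -0.177, FDR = 0.0104). The UPP1 call was lost without any 1 of the libraries. Its 112 nt extension, chr7:48141468-48141579, lies in intron 4 of 6 of the non-coding transcript UPP1-211. In whole cells UPP1 had 0.376 and 0.573 against 0.247 and 0.291, which is lower in both fractions after depletion (FDR = 0.10 in whole cells). SRSF5, an SR protein that acts in exon recognition, fell from 0.189 and 0.268 to 0.103 and 0.159 (difference -0.0973, FDR = 0.0177) at a pair of sites in the 5′ UTR of SRSF5-217. In whole cells SRSF5 was at 0.170 and 0.107 against 0.131 and 0.138 (FDR = 0.998).

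**Figure D4:**
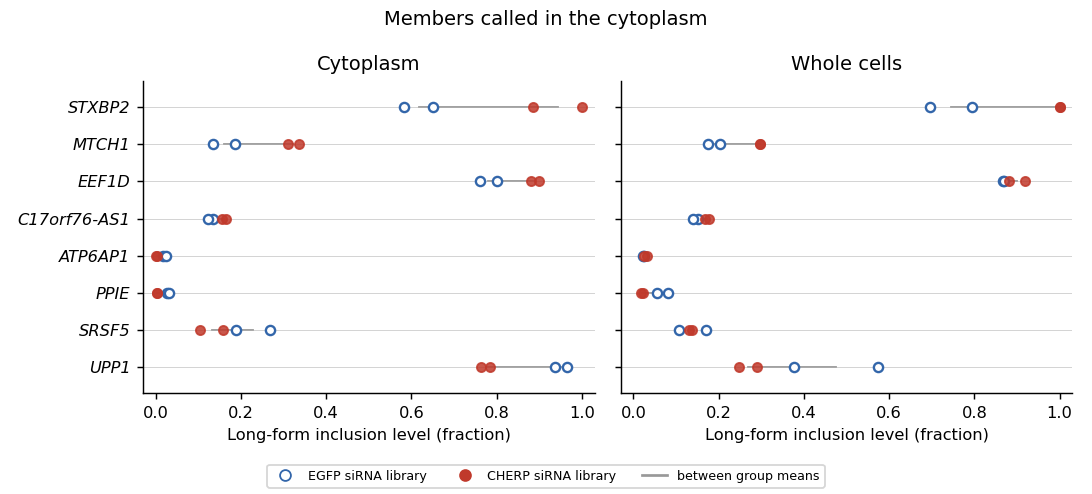
Long-form level (0 to 1, horizontal) of 8 of the 9 members called in the cytoplasm, on the left in the cytoplasm and on the right in whole cells, with open blue circles for EGFP siRNA libraries, filled red circles for CHERP siRNA libraries and a grey line between group means. SNHG29 and PPIE move alike in both panels, while the ATP6AP1 and SRSF5 whole-cell groups lie close to each other or overlap.

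The next comparison asked whether the siRNA difference itself differed between fractions. Over the 2053 events at the same coordinates, 1 was called (0.0487%), and it was a member, in ATP6AP1, an accessory subunit of the vacuolar proton pump. In the cytoplasm its long form held 27 and 31 reads in the control and 11 and 4 after depletion, and the short form 47, 35, 103 and 76. The level was 0.0161 and 0.0247 against 0.00304 and 0.00150 (FDR = 4.75e-07). In whole cells it was 0.0237 and 0.0220 against 0.0315 and 0.0240 (FDR = 0.838). The interaction on the ln odds scale was -2.30 (FDR = 8.10e-05). The extension of 2483 nt, chrX:153657521-153660003, starts with an annotated inner intron of 117 nt and covers most of intron 2 of 9 of ATP6AP1-201. ATP6AP1 reads on other events were higher by 0.83 in the cytoplasm (adjusted p = 0.00099) and by 0.84 in whole cells (adjusted p = 0.00118) on the log2 scale (limma).

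Among 622 members with at least 20 reads in both fractions, the siRNA differences had a Pearson correlation of 0.327 and a Spearman correlation of 0.325 across events. Events of 1 gene are not independent, and the fractions were prepared from cells under the same treatment. The difference had the same sign in both fractions in 390 of the 622 members. Of 23 whole-cell calls with a value in the cytoplasm, 20 had the same sign there, and among the 18 with at least 20 reads in both fractions it was 17. MYL6, at -0.00663 in the cytoplasm, was the exception. With EGFP siRNA the long-form level was lower in the cytoplasm than in whole cells in 368 of the 622 members, with a median difference of -0.00585, and with CHERP siRNA in 363 (median -0.00280). The read length differs between the fractions, which shifts such a comparison of levels.

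**Figure D5:**
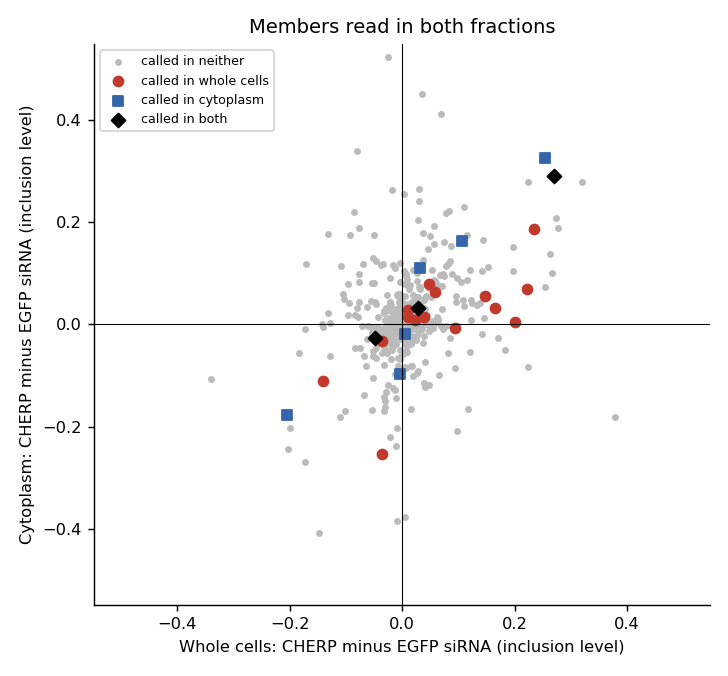
Difference in long-form level (CHERP minus EGFP siRNA) in the cytoplasm (vertical) against whole cells (horizontal) for the 622 members with at least 20 reads in both fractions, with red circles for members called in whole cells, blue squares for those called in the cytoplasm and black diamonds for those called in both. The points spread around 0 in both directions with a Pearson correlation of 0.327, and 17 of 18 members called in whole cells have the same sign in the cytoplasm.

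Host gene abundance was read from the skipped exon and alternative 3′ splice site events, leaving out the A5SS events. Junction reads can be shared between event types, so the abundance is not independent of the member counts. In DDX5 the short-form reads of the whole-cell member (11, 7, 36 and 57) are also the skipping reads of a skipped-exon event. Of the 29 genes with a whole-cell call, 6 were raised and 6 lowered after CHERP depletion (limma, adjusted p under 0.05), beside 37.3% of the 9560 genes tested. Of the 9 with a cytoplasmic call, 5 were raised and 1 was lowered, beside 48.5% of 7171 genes. The median log2 fold change was 0.08 over the whole-cell genes and 0.30 over the cytoplasmic genes, against 0.00 and -0.01 over all genes. The largest changes were in MTCH1 (above), in SNHG29, which was higher by 1.04 (adjusted p = 0.000171) in whole cells and 1.07 (adjusted p = 3.22e-08) in the cytoplasm, and in RPL7L1. A higher level of a form and a slower decay of that form cannot be told apart in steady-state RNA.

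The gene lists gave the following counts of members, to be read against the 1.13% of all events called in whole cells and 0.617% in the cytoplasm. Of 52 whole-cell members in genes of RNA splicing and processing, 3 rose (PRPF38A, RSRP1 and RBM3) and 1 fell (DDX5), and the median difference of the 50 with at least 20 reads was 0.00230. CWC25 and PPIE, which fell, and NCBP3, which rose, were described above with the splicing genes but are not counted in this list. Of 34 cytoplasmic members in the listed splicing and processing genes, only SRSF5 was called. Of 6 whole-cell members in genes of RNA decay and surveillance, 2 rose, RBM8A among them, and none of 4 was called in the cytoplasm, where none had an unadjusted p under 0.05. Of 68 whole-cell members in genes of translation and the ribosome, 5 rose (PABPC1, RPL12, RPL41, RPL7A and RPS2). The groups overlapped in RPS2, and its sign reversed without the first EGFP siRNA library. At least 20 reads were found in 63 of the 68, with a median difference of 0.000624, beside 1438 of all 1898 members. The part of depth in the called share of this list was not tested. In the cytoplasm 1 of 44 rose (EEF1D). RPS3A, the most read of this list, lay at 0.9996 with EGFP and CHERP siRNA alike at a 150 nt extension.

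No member was called in genes of the cell cycle and mitosis (32 whole-cell and 25 cytoplasmic members), DNA repair and replication (37 and 19) or chromatin and transcription (45 and 32) by the quasi-binomial test. At an unadjusted p under 0.05, these lists had 1 and 4, 2 and 0, and 4 and 0 members, and no member of any list passed with limma. BRCA1, which acts in homologous recombination, had the most reads of the repair list at a 3309 nt extension, with levels of 1.00 ± 0 (SD, n = 2) and 0.942 ± 0.00816 and no call (FDR = 0.305). ZWINT, a kinetochore protein, lay at 0.990 ± 0.0138 and 0.994 ± 0.00812 (FDR = 0.878), and the methyltransferase gene SUV39H2 at 0.955 ± 0.0177 and 0.960 ± 0.000346 (FDR = 0.914).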

How the data were processed

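The authors sequenced stranded poly(A) libraries, mapped the reads to hg19 with STAR (2.5.2b) and tabulated events with rMATS. The deposited tables hold other units: inclusion and skipping read counts per event, 2 comma-joined values per group without replicate numbers, and the form lengths. RSEM (1.2.25) gene values, the authors' p-values, FDR values and level differences, and 16 columns of inclusion levels were not used. The strand setting of rMATS is not given in the sources used here, so reads of antisense genes cannot be set apart. Each event was tested in R (4.3.3) with a quasi-binomial regression of the long-form share of its reads, with the dispersion moderated across all A5SS events by limma and Benjamini-Hochberg adjustment over all events. An event with reads of 1 form only in a group added no residual degrees of freedom for that group. Host gene abundance used limma on log2(value + 0.01) of reads over effective length, leaving out genes that averaged under 20 reads. Sites were read from GRCh37 and annotated with GENCODE 44 lifted to that build, and current symbols matched 3169 of 3191 member rows. Scripts were tested on simulated data. Named genes were members past the FDR threshold with at least 20 reads and no overlap between groups (the 12 largest rises and 12 largest falls in whole cells, 6 and 6 in the cytoplasm), those called in both fractions or with an interaction, and called or most read members of the gene lists. RPL7L1, NCBP3 and COX7A2 fall outside this rule and were chosen after their values were seen, as was the check for inner introns and their skipped-exon events. The members and gene lists were chosen with earlier results of these data known. Results of 2 called genes are counted but not reported by name here.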

Additional observations from a re-analysis of the deposited data

Results flagged for a closer look

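The siRNA difference of the ATP6AP1 long form differed between the fractions by the test of the interaction itself, at -2.30 on the ln odds scale (FDR = 8.10e-05, quasi-binomial test over 8 libraries). The long form fell in the cytoplasm in both CHERP siRNA libraries and lay slightly higher in whole cells, and the prior of 4 degrees of freedom removed the call.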

How the results depend on the processing

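With all libraries, the whole-cell count of 29 called members was 38 without a trend in the dispersion, 21 with the dispersion taken from events whose rarer form had 10 reads or more, 30 and 34 with a mean of at least 10 or 50 reads, and 28 where libraries had to be apart. It was 13 with a difference of at least 0.1, and 0 with a prior of 4 degrees of freedom, with limma on the log2 odds, and with residual degrees of freedom counted for every group, an alternative chosen after seeing the data. The cytoplasmic count of 9 was 15 without a trend, 14 with the dispersion taken from those events, 5 with a difference of at least 0.1, and 0 with each of the last 3 settings. Leaving out 1 library gave 7 (without the second CHERP siRNA library) to 44 (without the first EGFP siRNA library) calls in whole cells and 3 to 7 in the cytoplasm. The interaction count of 1 became 0 with a prior of 4 degrees of freedom and ranged from 0 to 2 without 1 library. The 12 host genes changed in whole cells ranged from 7 to 17 without 1 library, and the 6 in the cytoplasm from 5 to 6. The only called difference to change sign was RPS2, at -0.190 without the first EGFP siRNA library and 0.343 without the second. The cause of these shifts was not tested, except that the settings with 0 calls weigh an event's own 2 replicates or a wider spread. No paired analysis was possible because the deposited values carry no replicate number. The part of depth in the calls was not tested, and 1438 of 1898 whole-cell and 709 of 1293 cytoplasmic members had a mean of at least 20 reads.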
